A study of Mus musculus with 14 samples.

Results

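Rag1, Rag2, Dntt, Dclre1c, Xrcc5, Xrcc6, Prkdc, Xrcc4 and Lig4, the genes of V(D)J recombination and of the end joining that completes it, were followed across sorted B cell progenitors of the mouse. The 9 genes were chosen by name, and a probe set was taken as a member where the platform's annotation gave it 1 of these symbols and no other. This gave 12 probe sets for 8 of the 9 genes, out of 18193 genes on the array; no probe set was named for Dclre1c, so it has no value here. Where a gene had several probe sets, the one with the highest mean over all arrays leads and the others are given beside it. All values are log2 signals, so a difference of 1 is a doubling of the signal, and levels are compared between samples and never between genes.

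The 14 arrays fall into 6 groups. Cells called Pax5KO engrafted or WT engrafted (3 arrays for each) grew from day 15 fetal liver of embryos that either lacked Pax5, a transcription factor of B cell identity, or were wild type. A λ5 reporter was present in both kinds of embryo (λ5 is part of the surrogate light chain of early B cells), and the liver cells were given to sublethally irradiated mice. After 4 weeks, marrow cells positive for B220, a surface marker of B lineage cells, and for the reporter were sorted, so both engrafted groups passed the same gate. The other 4 groups, with 2 arrays each, came straight from the marrow of mice with no transplant: PreB, ProB, and common lymphoid progenitors (CLP) that were Ly6D+ or Ly6D-, Ly6D being a marker of those set towards the B lineage. The mice were C57Bl6 and 8 to 12 weeks old. The gates of the cells without transplant, beyond their names, and whether arrays shared animals are not stated in the labels, which call the arrays of a group biological replicates.

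The proteins RAG1 and RAG2 form the recombinase that cuts DNA beside the V, D and J segments of antigen receptor genes. The cut ends are bound by Ku (made of the Xrcc5 and Xrcc6 products) and by the kinase DNA-PKcs (Prkdc), opened by Artemis (Dclre1c), and sealed by XRCC4 with DNA ligase 4. Terminal transferase (Dntt) adds bases to the ends without a template. In B cell progenitors of the marrow the heavy chain locus is joined first and light chain loci later, with a phase of division between them in which the recombinase is known to be turned down.

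The sequences before the transcription start show how unlike the promoters of these genes are in base composition. For each, the 250 bases upstream of the RefSeq start (build GRCm38.p6) are printed 5′ to 3′ on the gene's own strand, with CG dinucleotides in capitals. Shown are the pair of recombinase genes and Dntt, which are used in lymphocytes, and Xrcc6 as an end joining gene used in cells of every kind. The stretches lie at chr2:101649533-101649782 on the minus strand (Rag1), chr2:101624462-101624711 on the plus strand (Rag2), chr19:41029025-41029274 on the plus strand (Dntt) and chr15:82016119-82016368 on the plus strand (Xrcc6).
Rag1: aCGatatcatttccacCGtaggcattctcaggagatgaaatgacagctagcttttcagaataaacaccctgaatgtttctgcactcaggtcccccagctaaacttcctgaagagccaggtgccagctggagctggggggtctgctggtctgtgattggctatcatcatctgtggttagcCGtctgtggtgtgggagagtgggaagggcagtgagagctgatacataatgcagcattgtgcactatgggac
Rag2: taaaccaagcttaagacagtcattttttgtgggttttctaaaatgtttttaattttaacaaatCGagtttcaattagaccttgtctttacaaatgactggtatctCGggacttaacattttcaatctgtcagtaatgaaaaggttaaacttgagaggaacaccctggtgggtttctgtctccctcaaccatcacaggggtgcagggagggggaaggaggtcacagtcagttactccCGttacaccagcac
Dntt: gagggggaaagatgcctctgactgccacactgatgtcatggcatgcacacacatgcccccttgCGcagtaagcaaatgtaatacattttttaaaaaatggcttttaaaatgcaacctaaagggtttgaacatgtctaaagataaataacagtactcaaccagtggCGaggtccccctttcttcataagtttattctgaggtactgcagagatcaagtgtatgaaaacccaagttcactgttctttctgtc
Xrcc6: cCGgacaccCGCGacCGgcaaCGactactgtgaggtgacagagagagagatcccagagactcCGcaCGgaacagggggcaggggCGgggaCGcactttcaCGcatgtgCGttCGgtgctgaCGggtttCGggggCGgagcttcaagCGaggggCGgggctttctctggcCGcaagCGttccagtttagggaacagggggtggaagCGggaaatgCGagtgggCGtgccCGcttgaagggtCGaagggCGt

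Rag1 and Rag2 each had 3 CG dinucleotides in this window and Dntt had 2, whereas Xrcc6 had 25. Xrcc4 had 26, and the 2 listed starts of Lig4 had 28 and 27; Dclre1c had 8 and Xrcc5 had 5. Over all 32851 starts of 27025 genes the median was 6 and the quartiles were 2 and 16. A count of 3 or fewer was found at 37.8% of starts and a count of 2 or fewer at 29.0%, so the lymphoid genes lie in the lower part of the distribution but not at its edge. A count as high as that of Xrcc6 was found at 10.7% of starts. The 8 members with a promoter entry gave 9 starts; Prkdc had no entry. Motifs of factors known at lymphoid promoters were searched on both strands of the same windows. The E-box CAGCTG was present once each at Rag1 and at both Lig4 starts, with 2 matches at Dclre1c, and at 13.0% of all starts. The E-box CAGGTG was present at Rag1 and at 17.2% of all starts, and the Ikaros core TGGGAA was present at Rag1 and at 1 Lig4 start and at 21.6% of all starts. The FOXO motif GTAAACA (3.17% of all starts) and TATAAA (12.4%) were found at none of the 9 starts. These matches describe letters in the windows and were not tested for binding.

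No 2 arrays held identical values, and Pearson's r between arrays of a group lay between 0.938 and 0.989 over probe sets. The table has a floor at its lowest value, 2.32, and a group whose arrays all lie within 0.5 of it is called at the floor. The Pax5 signal was 7.57 to 7.95 on the Pax5KO engrafted arrays and 6.18 to 6.76 on the WT engrafted arrays, and whether its probe set lies in the deleted part is not stated, so it does not check the genotype. Of the 8 T cell markers, 5 to 7 were at the floor in each group, Cd3e, Cd3g, Cd3d, Ptcra and Cd8a among them in all 6 groups. The 7 measured B lineage markers had a mean log2 signal of 11.43 or more on the WT engrafted arrays and at least 10.28 on the Pax5KO engrafted arrays. Several measures of the arrays moved with the groups. The excess of the 3′ over the 5′ actin probe set, a sign of RNA quality, was 6.71 and 7.27 in PreB and 2.51 to 5.57 elsewhere. Xist, transcribed in female cells, was 12.7 to 13.2 in Pax5KO engrafted cells and 10.7 and 11.5 in ProB. It was 12.7 on WT engrafted array 3 and no higher than 2.73 on the other arrays.

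Across the 6 groups, the means of Dntt, Lig4, Prkdc, Rag1 and Xrcc6 spanned most relative to the spread between arrays of a group, those of Xrcc5 and Rag2 less, and those of Xrcc4 least. The leading probe set of every measured gene is plotted by array.

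**Figure D1:**
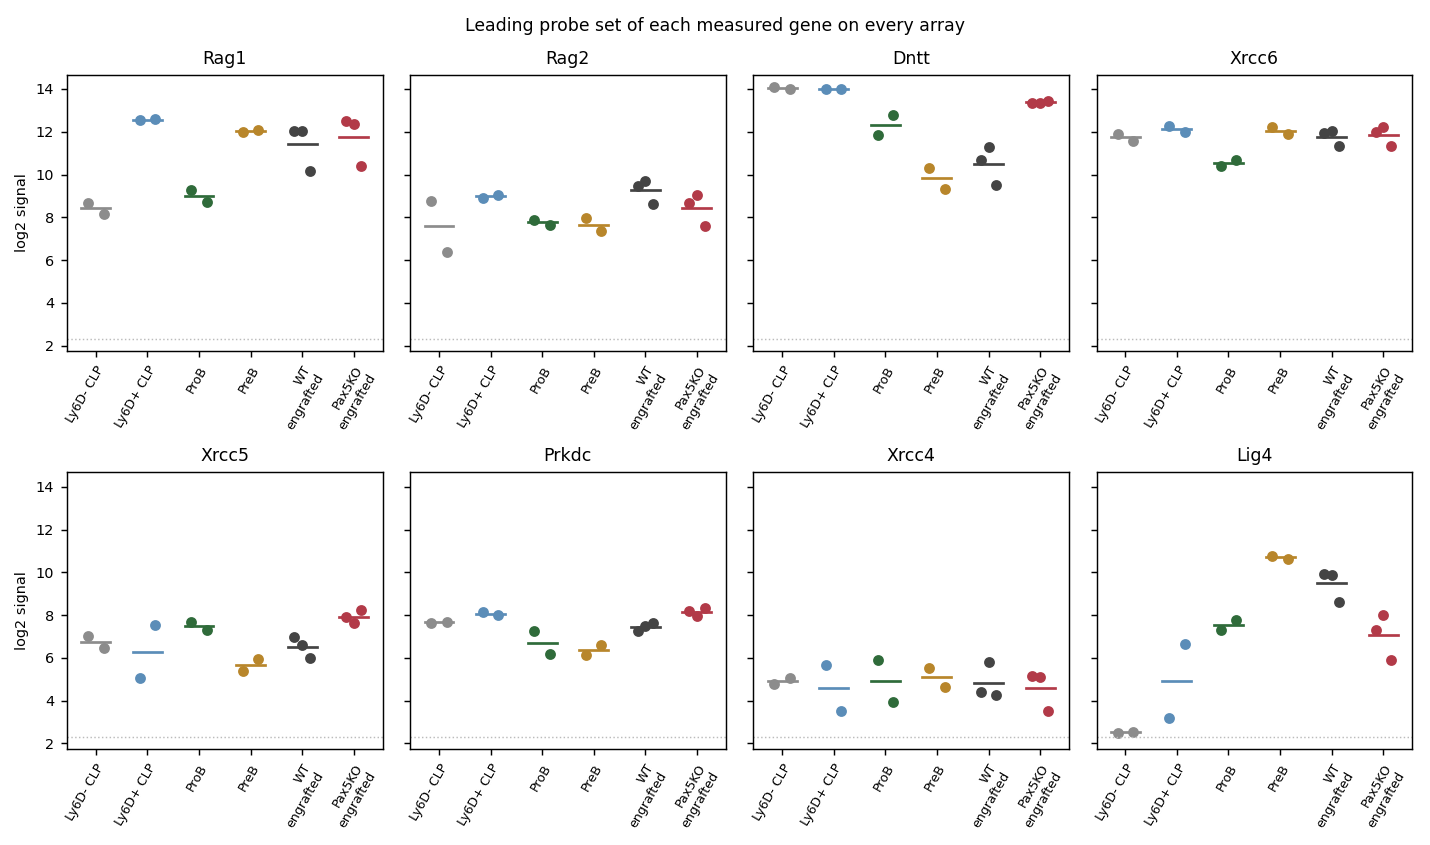
Log2 signal of the leading probe set of the 8 measured genes (y axis) on each of the 14 arrays (points), by group (x axis), with bars at group means and a dotted line at the lowest value of the table. Rag1 is low in Ly6D- CLP (mean 8.42) and ProB (8.99) and above 10.1 on every other array, and Lig4 runs from 2.53 in Ly6D- CLP to 10.70 in PreB.

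Each comparison was tested with limma on all 18193 genes, and a difference was called at an adjusted p (Benjamini-Hochberg) under 0.05. Between Pax5KO and WT engrafted cells 1 of the 8 genes was called, Dntt, which was higher, where 5.94% of all genes were called and 3.64% were called higher. In counts, 663 of the 18193 genes were called higher there and 417 lower. From Ly6D- to Ly6D+ CLP 1 of 8 was called, Rag1, which was higher, where 1.45% of all genes were called and 0.813% were called higher. From Ly6D+ CLP to ProB 3 of 8 were called lower, Rag1, Xrcc6 and Prkdc, where 7.29% of all genes were called and 5.36% were called lower. From ProB to PreB 2 of 8 were called higher (Rag1 and Xrcc6) and 1 lower (Dntt), where 11.5% of all genes were called, 6.35% higher and 5.19% lower. Pax5KO engrafted cells exceeded ProB in 2 of 8 (Xrcc6 and Prkdc), where 5.24% of all genes were called and 4.22% were called higher. None of 8 was called between WT engrafted cells and ProB (4.93% of all genes were). In that last comparison 4 of the 8 had an unadjusted p under 0.05, as had 15.8% of all genes. The median difference of the 8 genes was 0.21, 0.40, -1.29, 0.03, 0.86 and 0.98 in the order given, where the median of all genes was 0. The array medians lie near the floor, so that 0 says little about expressed genes. Among all called genes, 61.4%, 56.1%, 26.5%, 55.0%, 80.6% and 73.7% were higher in the same order. The medians of the 8 genes were not tested against this. The 4 comparisons that involve ProB share its arrays, and those between the engrafted groups and with ProB share the engrafted arrays, so their values are not independent. Engrafted cells also differ from ProB in fetal liver origin and in transplantation, and WT engrafted arrays 1 and 2 in Xist. These cannot be told apart from stage or genotype wherever engrafted cells are set against ProB. With sorted bulk cells, fewer expressing cells and less RNA per cell cannot be told apart.

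**Figure D2:**
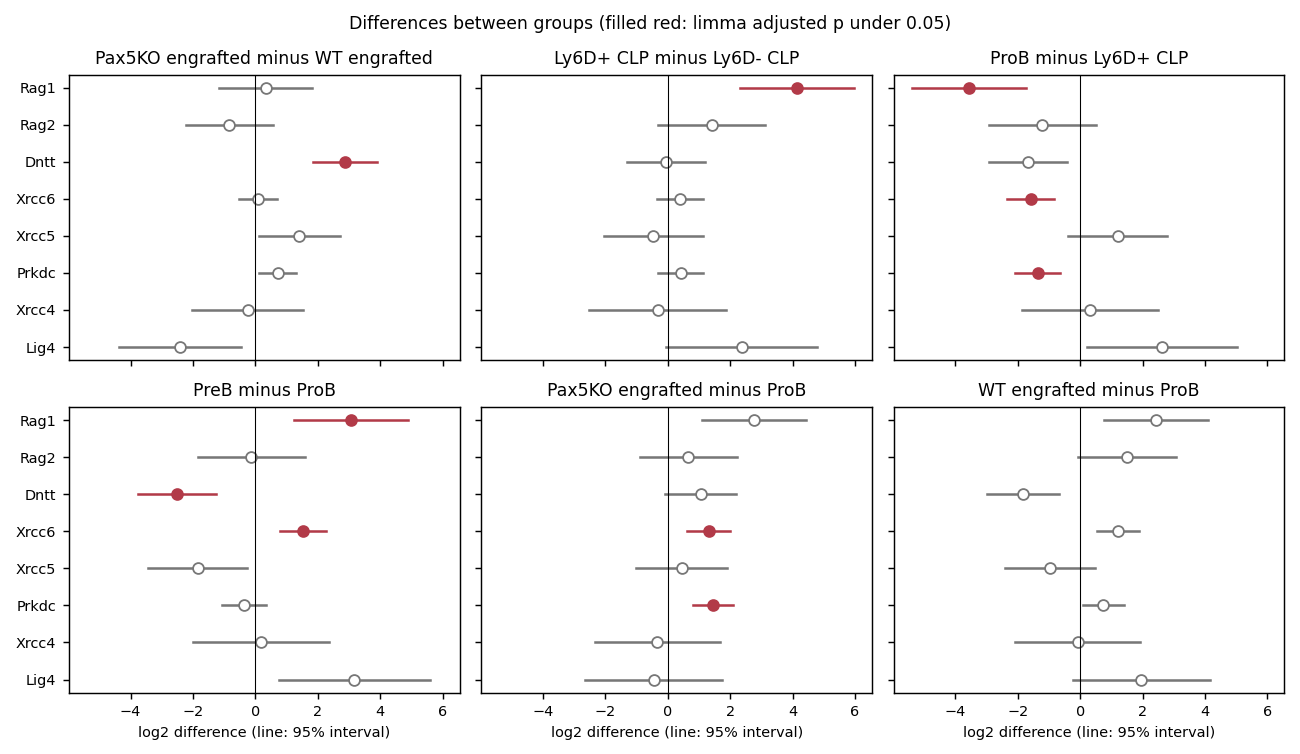
Log2 difference between groups (x axis, points) with its 95% interval (lines) for the 8 measured genes (y axis) in the 6 comparisons (panels). Filled red points passed an adjusted p of 0.05 in limma; Dntt stands at 2.89 between Pax5KO and WT engrafted cells, and Rag1 at 4.15, -3.57 and 3.05 in the steps from Ly6D- CLP to PreB.

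Rag1, the catalytic subunit of the recombinase, alternated between low and high along the steps of the cells without transplant. Its log2 signal was 8.69 and 8.15 on the arrays of Ly6D- CLP and 12.55 and 12.58 on those of Ly6D+ CLP. It was 9.28 and 8.70 in ProB and 12.01 and 12.08 in PreB. At each step the 2 arrays of one group lay apart from the 2 of the other, by gaps that were larger than the spread within a group. Rag1 rose by 4.15 (SE 0.80; 17.7-fold; limma adjusted p = 0.0482) from Ly6D- to Ly6D+ CLP. It fell by 3.57 (SE 0.80; adjusted p = 0.0313) from Ly6D+ CLP to ProB, and rose again by 3.05 (SE 0.80; 8.29-fold; adjusted p = 0.0428) from ProB to PreB. Leaving out any 1 of the 4 arrays of a step ended each of these calls, with adjusted p from 0.0524 to 0.0988 at the first step, 0.0531 to 0.142 at the second and 0.0747 to 0.190 at the last. When every probe set was fitted singly, the first call (adjusted p = 0.0553) and the last (0.0522) ended. With array weights all 3 ended (0.566, 0.228 and 0.102), as they did in fits of the compared groups alone (0.350, 0.131 and 0.0736). The 7 granulocyte markers had a mean log2 signal of 3.83 on 1 Ly6D- CLP array and 8.51 on the other, whose part was not tested.

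Several other measures moved with the low Rag1 signal of ProB, and their part in it was not tested. The 9 measured proliferation genes had a mean log2 signal of 10.8 on both ProB arrays, against 9.39 to 9.47 in Ly6D+ CLP and 8.70 to 9.10 in PreB. Of these 9 genes 3 were called higher in ProB than in Ly6D+ CLP, with Plk1, a mitotic kinase, up by 3.35 (adjusted p = 0.000676). In PreB 5 of the 9 were called lower than in ProB, and Plk1 fell by 5.25 (adjusted p = 3.27e-05). Xist was present in ProB and absent from the CLP and PreB arrays, so the sex of the donors and the group cannot be told apart. Transcripts of other cells differed too. Of 7 granulocyte markers, 5 were called higher in PreB than in ProB, with a mean log2 signal of 9.0 to 9.2 against 2.76 to 2.82. Of 4 NK cell markers 3 were called higher in PreB, with a mean of 6.81 to 7.21 against 2.74 to 2.95. S100a8, a granulocyte gene, exceeded ProB by 9.20 and Gzma, a granzyme at the floor in ProB, by at least 8.22, while Elane and Ncr1 of these lists were at the floor in PreB.

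In the engrafted cells Rag1 was 12.04, 12.03 and 10.16 on the WT arrays and 12.50, 12.35 and 10.38 on the Pax5KO arrays. The groups overlapped, and in each of them array 3 was lowest, well below the other 2. The difference, Pax5KO minus WT, was 0.33 (SE 0.65; 95% interval -1.16 to 1.82; adjusted p = 1). Between arrays of the same number it was 0.45, 0.31 and 0.22, higher in Pax5KO each time, and with the replicate number as a block it did not pass (adjusted p from 0.361 to 0.973). Set against ProB, Rag1 was 2.75 higher in Pax5KO engrafted cells (SE 0.73; adjusted p = 0.0750) and 2.42 higher in WT engrafted cells (adjusted p = 0.113), with no overlap of arrays, and neither passed. Without array 3 of the group concerned these became 3.43 (adjusted p = 0.0209) and 3.05 (adjusted p = 0.0408), which are calls. Arrays 3 also stood apart in the excess of 3′ over 5′ probe sets of Gapdh, at 5.79 (Pax5KO) and 5.44 (WT) against 2.61 to 3.90 on the other engrafted arrays.

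Rag2, the partner of RAG1 in the recombinase, was called in none of the 6 comparisons. Its signal was 8.76 and 6.40 on the Ly6D- CLP arrays and 8.92 and 9.06 on the Ly6D+ CLP arrays. The ProB arrays gave 7.89 and 7.65, and the PreB arrays 7.95 and 7.34. The Ly6D- CLP arrays differed by more than any pair of group means, and ProB and PreB overlapped. Rag2 was 9.45, 9.71 and 8.63 on the WT engrafted arrays and 8.67, 9.03 and 7.58 on the Pax5KO engrafted arrays, which overlapped. Array 3 was again the lowest of each engrafted group. The difference, Pax5KO minus WT, was -0.84 (95% interval -2.23 to 0.56; limma adjusted p = 0.709). Between arrays of the same number it was -0.78, -0.68 and -1.05, lower in Pax5KO each time, and with the replicate block it did not pass (adjusted p from 0.567 to 0.607). From ProB to PreB the difference was -0.12 (95% interval -1.84 to 1.59; adjusted p = 1), where that of Rag1 was 3.05. Whether these steps differ between the genes was not tested. In the order of group means, from WT engrafted cells (9.26) down to Ly6D- CLP (7.58), every pair of neighbours overlapped. Over the 14 arrays Pearson's r between Rag1 and Rag2 was 0.589, a description of arrays that share groups.

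Dntt, which encodes terminal transferase, was the member that separated the engrafted groups. Its leading probe set, 1449757_x_at, was 13.35, 13.34 and 13.45 on the Pax5KO engrafted arrays and 10.69, 11.28 and 9.49 on the WT engrafted arrays. Every Pax5KO array lay above every WT array, and the Pax5KO arrays were closer together. Dntt was 2.89 higher in Pax5KO engrafted cells (SE 0.45; 95% interval 1.86 to 3.92; 7.41-fold; limma adjusted p = 0.00625). The call held without any 1 of the 6 arrays, with differences from 2.39 to 3.29. It ended when only the 6 engrafted arrays entered the fit (adjusted p = 0.0714). With a term for arrays with an Xist signal over 8 the difference was 3.89. Only the WT engrafted group held arrays on both sides of that cut, with array 3 alone above it. The term therefore rests on WT array 3 and cannot tell sex from other traits of that array. Some genes of the progenitor, B lineage, NK and plasma cell marker lists differed in this comparison too. Their part in the Dntt difference was not tested. Of 6 progenitor markers 2 were higher in Pax5KO engrafted cells, with Flt3, a receptor of early progenitors, up by 5.90 (limma adjusted p = 2.23e-05). Among those not called, Ly6d differed by -1.05 and Sox4 by -0.01, and Cd34 was at the floor in both groups. Of 7 B lineage markers 3 were lower, with Cd22, an inhibitory B cell receptor, lower in Pax5KO (-4.43, limma adjusted p = 0.000288). Vpreb1 and Igll1 of this list went the other way, higher in Pax5KO by 1.02 and 0.90, and were not called. Of 4 NK cell markers Klrd1 alone was called, and it was higher (3.33, limma adjusted p = 0.00137). Nkg7 of this list differed by 2.32 and Gzma by 0.23, neither called, and Ncr1 was at the floor in both groups. Klrd1 was also 6.74 to 7.66 on the CLP arrays, where Ncr1 and Gzma were at the floor. Of 4 plasma cell markers Jchain was higher (6.90, limma adjusted p = 0.0253) and Sdc1 lower (-3.12, adjusted p = 0.0107). Prdm1 of this list was at the floor in both groups. Jchain was 11.78 to 12.54 in Pax5KO engrafted cells and as high in ProB, at 12.00 and 12.22. The Jchain call ended with the replicate block (0.0544 and 0.0522), and leaving out 1 array gave an adjusted p of up to 0.0889. Of the 4 Sdc1 probe sets, fitted singly, the leading one alone was called.

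Among the cells without transplant, Dntt read 14.088 and 14.0035 for Ly6D- CLP, and 13.98 and 14.02 for Ly6D+ CLP. It was 11.86 and 12.78 in ProB, and 10.31 and 9.33 in PreB. The CLP groups overlapped, and below them the ProB arrays lay above both PreB arrays. The difference between the CLP groups was -0.05 (95% interval -1.303 to 1.21). From Ly6D+ CLP to ProB the difference was -1.68 (SE 0.55; adjusted p = 0.126), and from ProB to PreB Dntt fell by 2.50 (SE 0.55; adjusted p = 0.0208). This last call ended without PreB array 3 (-2.01; adjusted p = 0.120) and without ProB array 2 (-2.04; adjusted p = 0.125). The actin, proliferation, Xist and marker values given above touch the step from ProB to PreB here too, and their part was not tested. In the order of group means the Pax5KO engrafted cells (13.38) stood between the CLP groups and ProB (12.32), and overlapped none of them. The WT engrafted cells (10.49) stood between ProB and PreB (9.82) and overlapped PreB. Against ProB, Dntt differed by 1.06 in Pax5KO engrafted cells (adjusted p = 0.318) and by -1.83 in WT engrafted cells (adjusted p = 0.0830), and neither passed. Fetal liver origin and transplantation differ in both comparisons, and their part was not tested.

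The other probe sets of Dntt gave the same directions between the engrafted groups with different sizes. On 1450545_a_at the signal was 13.20, 13.27 and 12.38 in Pax5KO and 9.45, 10.21 and 7.02 in WT engrafted cells, and the groups did not overlap. The difference was 4.06 (SE 0.72; limma adjusted p = 0.0158 over probe sets fitted singly, of which 4% were called). On 1420166_at the signal was 7.27, 7.85 and 10.40 in Pax5KO and 6.63, 7.29 and 7.25 in WT engrafted cells. These overlapped, and the difference of 1.45 (SE 0.91; adjusted p = 0.726) did not pass. From ProB to PreB the signal of 1450545_a_at fell by 4.27 (SE 0.88; adjusted p = 0.0190, where 8.8% of probe sets were called), and 1420166_at differed by -1.82 (adjusted p = 0.414). Array 3 of the Pax5KO engrafted group was the lowest of its group on 1450545_a_at and the highest on 1420166_at.

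**Figure D3:**
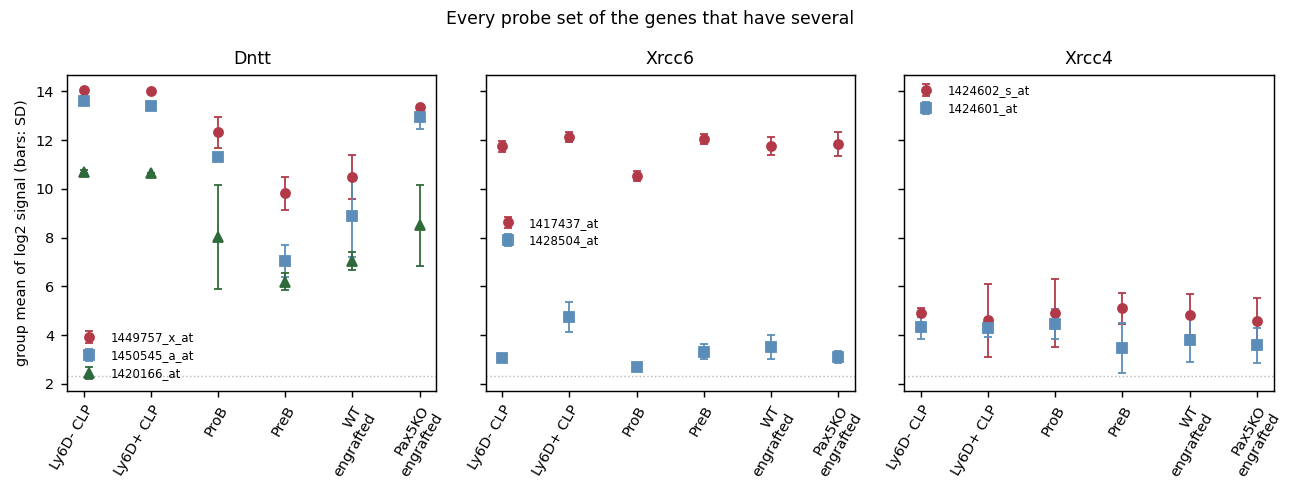
Group means of log2 signal (y axis; bars, SD; 2 or 3 arrays a group) for every probe set of Dntt, Xrcc6 and Xrcc4 (panels), by group (x axis), with a dotted line at the lowest value of the table. The 3 Dntt probe sets are highest in both CLP groups and lowest in PreB, and the second probe set of Xrcc6 lies between 2.63 and 5.18 on all arrays.

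Xrcc6 and Xrcc5 encode the Ku70 and Ku80 subunits that clasp the broken end. Xrcc6 read 11.91 and 11.58 for Ly6D- CLP and 12.27 and 11.99 for Ly6D+ CLP. It read 10.39 and 10.69 for ProB against 12.20 and 11.90 for PreB. ProB stood alone as the low group, below every array of the other 5 groups, whose means lay within 0.38 of each other. Xrcc6 fell by 1.59 (SE 0.32; limma adjusted p = 0.0210) from Ly6D+ CLP to ProB and rose by 1.52 (SE 0.32; 2.86-fold; adjusted p = 0.0187) from ProB to PreB. The first call ended without either ProB array or without Ly6D+ CLP array 1 (adjusted p up to 0.0722). The second ended without either ProB array (0.0707 and 0.0528) or without PreB array 2 (0.0946). The proliferation, Xist and marker values given for Rag1 touch this step in the same way.

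On the engrafted arrays Xrcc6 was 11.99, 12.23 and 11.32 in Pax5KO and 11.93, 12.01 and 11.34 in WT cells, which overlapped, with a difference of 0.08 (95% interval -0.52 to 0.69). Both groups lay above ProB on every array. Against ProB the difference was 1.31 in Pax5KO engrafted cells (SE 0.30; adjusted p = 0.0407) and 1.22 in WT engrafted cells (SE 0.30; adjusted p = 0.0549), of which the first passed. Without array 3 the WT difference passed (adjusted p = 0.0358). The Pax5KO call held without array 3 and ended without array 1 (0.128), array 2 (0.112) or either ProB array (0.135 and 0.102). The dim probe set 1428504_at, at the floor in ProB, lay at least 2.04 lower there than in Ly6D+ CLP (SE 0.36; adjusted p = 0.0152, where 4.98% of probe sets were called) and was at least 0.63 higher in PreB (adjusted p = 0.372, not called).

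Xrcc5 had another pattern from its partner. It was 7.90, 7.65 and 8.25 on the Pax5KO engrafted arrays and 6.97, 6.58 and 6.01 on the WT engrafted arrays, with no overlap. Groups did not overlap for 4 of the 8 genes in this comparison (Dntt, Lig4, Prkdc and Xrcc5), as for 19.6% of all genes. The Xrcc5 difference was 1.41 (SE 0.57; 95% interval 0.12 to 2.71; adjusted p = 0.267) and did not pass over all genes. With array weights it was 1.13 (adjusted p = 0.0268). In the cells without transplant Xrcc5 was 7.04 and 6.45 (Ly6D- CLP), 5.05 and 7.52 (Ly6D+ CLP), 7.69 and 7.29 (ProB), then 5.36 and 5.93 (PreB). PreB lay below ProB on both arrays, with a difference of -1.84 (SE 0.70; adjusted p = 0.151) that did not pass. The Ly6D+ CLP arrays lay on either side of the Ly6D- CLP arrays. From Ly6D+ CLP to ProB the difference was 1.20 (limma adjusted p = 0.364). Without Ly6D+ CLP array 2, which leaves a single array of that group, it was 2.44.

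Prkdc encodes DNA-PKcs, the kinase that Ku brings to the end. It was 8.19, 7.97 and 8.32 on the Pax5KO engrafted arrays and 7.24, 7.49 and 7.62 on the WT engrafted arrays. All Pax5KO arrays were higher, by 0.71 in the mean (SE 0.26; 95% interval 0.127 to 1.295; limma adjusted p = 0.196), which did not pass over all genes; with array weights the adjusted p was 0.0134. For Ly6D- CLP the Prkdc signal was 7.63 and 7.69, and for Ly6D+ CLP it was 8.15 and 7.99. For ProB it was 7.25 and 6.17, and for PreB 6.11 and 6.58. Ly6D+ CLP were above ProB, and ProB overlapped PreB. Prkdc fell by 1.36 (SE 0.31; adjusted p = 0.0356) from Ly6D+ CLP to ProB. This call held only without ProB array 1, and leaving out the other arrays in turn gave an adjusted p of up to 0.104. Pax5KO engrafted cells exceeded ProB by 1.45 (SE 0.29; 2.73-fold; adjusted p = 0.0231), a call that ended without Pax5KO array 1 (0.0747), Pax5KO array 3 (0.0643) or ProB array 2 (0.0621). WT engrafted cells differed from ProB by 0.74 (limma adjusted p = 0.236). With a single ProB array in the fit this became 1.28 without ProB array 1 and 0.20 without ProB array 2.

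Lig4, the ligase of the last step, had the widest range of the members. The Ly6D- CLP arrays read 2.51 and 2.55, and the Ly6D+ CLP arrays 3.17 and 6.63. ProB followed with 7.29 and 7.76, and PreB with 10.78 and 10.62. Each of these groups lay above the one before, Ly6D- CLP being at the floor. With 2 arrays a group this order is a description and carries no test. At these steps 5, 6 and 5 of the 8 members did not overlap, and the shares over all genes are not given here. No single step was called. The differences were at least 2.37 (SE 1.06; adjusted p = 0.494) between the CLP groups, 2.62 (SE 1.06; adjusted p = 0.229) from Ly6D+ CLP to ProB and 3.18 (SE 1.06; adjusted p = 0.100) from ProB to PreB. The Ly6D+ CLP arrays were further apart than those of any other group. Without array 1 of that group the first difference was at least 4.10, and without array 2 the second was 4.35. Each of these fits kept a single Ly6D+ CLP array. The last step passed when dim genes were left out of the fit (adjusted p = 0.0202) or when genes at the floor on all arrays were (0.0373). The actin, proliferation, Xist and marker values of ProB and PreB touch that step too, and their part was not tested.

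In the engrafted cells Lig4 was 7.32, 8.00 and 5.89 on the Pax5KO arrays and 9.94, 9.90 and 8.62 on the WT arrays, and every Pax5KO array was lower. Array 3 was the lowest of each group. The difference was -2.41 (SE 0.86; 95% interval -4.38 to -0.44; limma adjusted p = 0.192), which did not pass over all genes. It passed without dim genes (adjusted p = 0.0433) and with array weights (0.0133). With a term for the Xist signal it was -1.55 and did not pass, and that term rests on WT array 3 alone, as for Dntt. In the order of group means the WT engrafted cells (9.49) came after PreB (10.70), and the Pax5KO engrafted cells (7.07) came after ProB (7.52), which they overlapped. Over the 14 arrays Dntt and Lig4 ran opposite, with Pearson's r of -0.817 as a description over arrays of shared groups.

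Xrcc4, the partner of the ligase, was low and did not separate the groups. The leading probe set, 1424602_s_at, lay between 3.50 and 5.90 on the 14 arrays, and the group means spanned 0.51 from 4.58 to 5.10, less than the spread between arrays of a group (residual SD 0.99). The other probe set, 1424601_at, lay between 2.76 and 4.88. Neither was called in any of the 6 comparisons. Between the engrafted groups the leading probe set differed by -0.25 (95% interval -2.03 to 1.53).

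The listed factors that work beside the members were then counted between the engrafted groups. Of 8 measured further end joining factors 1 was higher and 1 lower, both of them gap-filling DNA polymerases of the same family as terminal transferase. Polm, which encodes polymerase mu, was at the floor in Pax5KO engrafted cells (2.33, 2.34 and 2.34) and was 8.00, 7.90 and 6.66 in WT engrafted cells. The groups were far apart, and Polm was lower in Pax5KO engrafted cells by at least 5.18 (SE 0.29; limma adjusted p = 2.36e-05). Poll, which encodes polymerase lambda, went the other way. It was 7.10, 7.08 and 6.90 in Pax5KO and 2.45, 3.85 and 3.91 in WT engrafted cells, a rise of 3.62 in cells without Pax5 (SE 0.41; 12.3-fold; adjusted p = 0.00112). Both calls held without any 1 of the 6 arrays, and each gene has 1 probe set.

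The polymerases also separated the groups without transplant. Polm was at the floor in both CLP groups and in ProB, and was 6.57 and 6.48 in PreB. It exceeded ProB by at least 4.15 in PreB (adjusted p = 0.000254) and by at least 5.14 in WT engrafted cells (adjusted p = 0.000133). Poll was 6.38 to 7.24 in Ly6D- CLP, 7.04 to 7.50 in Ly6D+ CLP, 5.65 to 6.24 in ProB and 2.598 to 2.995 in PreB. It was lower by 3.15 in PreB than in ProB (adjusted p = 0.00491) and by 2.54 in WT engrafted cells than in ProB (adjusted p = 0.0170). The actin, proliferation, Xist and marker values given above touch the step from ProB to PreB for both polymerases. Their part was not tested. On every array, the groups with Polm above the floor (PreB and WT engrafted) had the lower signals of Poll and of the leading Dntt probe set. On the Dntt probe set 1420166_at, WT engrafted arrays 2 and 3 (7.29 and 7.25) lay above ProB array 1 (6.51). The Ly6D- CLP, Ly6D+ CLP, ProB and Pax5KO engrafted groups had Polm at the floor.

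**Figure D4:**
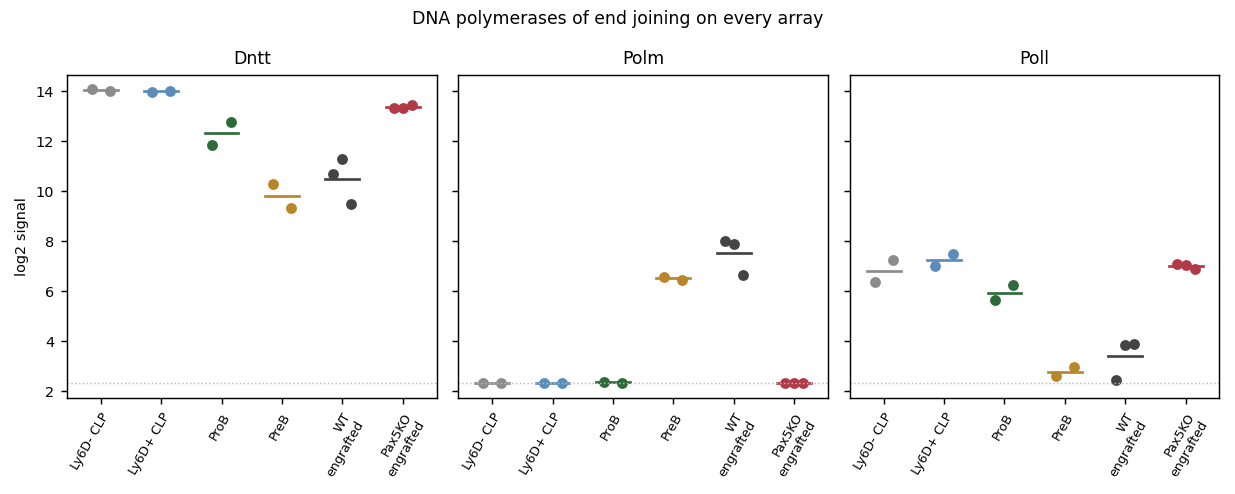
Log2 signal (y axis) of Dntt, Polm and Poll (panels) on each of the 14 arrays (points), by group (x axis), with bars at group means and a dotted line at the lowest value of the table. Polm leaves the floor only on the PreB and WT engrafted arrays (6.48 to 8.00), where Poll is 3.91 or lower and Dntt is 11.28 or lower.

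Factors of break sensing and of other repair routes were mostly not called between the engrafted groups. None of 7 measured genes of break sensing passed, and the largest difference was that of Atm, the kinase that answers double-strand breaks, at 0.997 (adjusted p = 0.365). None of 7 genes of homologous recombination passed; Brca2, a tumour suppressor of this route, differed by 1.02 (adjusted p = 0.457). At an unadjusted limma p under 0.05, 2 genes of break sensing passed, Chek2 (0.68 higher; adjusted p = 0.271) and Trp53bp1 (0.92 higher; adjusted p = 0.292), and none of homologous recombination. Both were named after their values were seen. Of 5 genes of alternative end joining, 1 passed. Parp1, a sensor of DNA strand breaks, was 13.77, 13.75 and 13.76 in Pax5KO and 12.04, 12.11 and 11.61 in WT engrafted cells. It was higher in Pax5KO by 1.84 (SE 0.20; 3.57-fold; adjusted p = 0.000931), and 3 of its 4 probe sets were called. Parp1 also exceeded ProB by 1.89 in Pax5KO engrafted cells (adjusted p = 0.00219). Hmgb2, a DNA-bending cofactor of the recombinase, differed by -0.46 (adjusted p = 0.386). Of 9 proliferation genes 1 was lower in Pax5KO engrafted cells, Ccna2 (-1.16; adjusted p = 0.0382), which was not called without any 1 of the arrays other than Pax5KO array 2. Against ProB, Plk1 was lower in Pax5KO engrafted cells by 1.36 (adjusted p = 0.0313), a call that ended without any 1 of the 5 arrays.

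**Figure D5:**
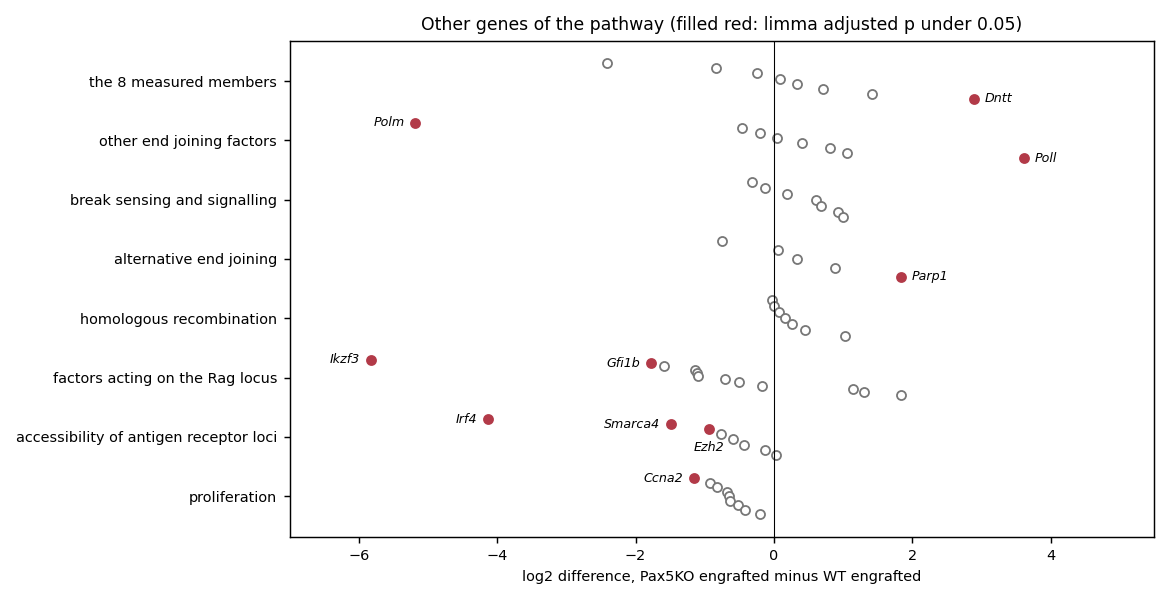
Log2 difference, Pax5KO minus WT engrafted cells (x axis), of each measured gene (points) of the 8 members and of 7 lists of related genes (rows). Filled red points passed a limma adjusted p of 0.05 and are named; Polm (-5.18, at the floor in Pax5KO) and Poll (3.62) lie on opposite sides, and none of the genes of break sensing or homologous recombination passed.

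At the step from ProB to PreB, 1 of 7 genes of break sensing and 1 of 5 of alternative end joining were called lower. So was 1 of 7 of homologous recombination, where 11.5% of all genes were called and 5.19% were called lower. Chek2, a checkpoint kinase, fell by 1.95 (limma adjusted p = 0.00698), and Lig1, the ligase of DNA replication, fell by 2.05 (adjusted p = 0.00182). Rad54l, a factor of strand exchange, fell by 1.79 (adjusted p = 0.0296), a call that ended without ProB array 1 or either PreB array. The proliferation genes, of which 5 of 9 fell at this step, moved with these values, and their part was not tested. From Ly6D+ CLP to ProB, Parp1 fell by 1.23 (adjusted p = 0.0187), and the call ended without ProB array 1 (0.0636) or Ly6D+ CLP array 2 (0.0618).

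Of 12 transcription factors known to act on the Rag locus, 2 were lower in Pax5KO than in WT engrafted cells and none was higher. Ikzf3, which encodes Aiolos, was at the floor in Pax5KO engrafted cells (2.36, 2.47 and 2.47) and 8.43, 8.32 and 8.05 in WT engrafted cells, a difference of at least 5.83 (limma adjusted p = 6.18e-06). Gfi1b, a repressor of the Rag genes, was lower by 1.78 (adjusted p = 0.0464), and that call ended without any 1 of the 6 arrays. The Rag1 and Rag2 differences in the same comparison were 0.33 and -0.84 and did not pass. From Ly6D- to Ly6D+ CLP, where Rag1 rose, 2 of the 12 were higher, Ebf1 by 5.64 (adjusted p = 0.000888) and Foxo1 by 3.75 (adjusted p = 0.00180), both activators in early B cells. From Ly6D+ CLP to ProB, 2 rose, with Ikzf3, at the floor in Ly6D+ CLP, up by at least 4.32, and 2 fell, with Satb1, a chromatin organiser, which fell by 3.52. From ProB to PreB, 4 rose and none fell: Ikzf3 by 3.60, Foxp1 by 3.57, Foxo1 by 2.38 and Myb by 1.38. Ikzf3 was lower in Pax5KO engrafted cells than in ProB by at least 4.35 (adjusted p = 0.000140), and Foxp1 was higher in WT engrafted cells than in ProB by 2.99 (adjusted p = 0.0281), a call that ended without any 1 of the 5 arrays.

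Of 8 measured genes that govern the accessibility of antigen receptor loci, 3 were lower in Pax5KO engrafted cells. Irf4, which acts at light chain loci, was 7.15, 7.56 and 6.80 against 11.38, 11.68 and 10.86, lower by 4.14 (limma adjusted p = 0.00713; 0.0510 without both arrays numbered 3). Smarca4, the motor of a chromatin remodeller, was lower by 1.49 (adjusted p = 0.000334). Ezh2, a histone methyltransferase, was lower by 0.94 (adjusted p = 0.0165), a call that ended without WT array 1 (0.0521) or WT array 2 (0.0629). Smarca4 rose by 1.38 from Ly6D- to Ly6D+ CLP (adjusted p = 0.00429), a call that ended with averaged probe sets (1.11; 0.0782), with array weights (0.103) and in a fit of these groups alone (0.446). Irf4 rose by 4.502 from Ly6D+ CLP to ProB (adjusted p = 0.0121), a call that ended without ProB array 2 (0.0613). The Ly6D+ CLP arrays of Irf4 read 5.94 and 2.95, and the difference was 5.996 without array 1 and 3.01 without array 2. Against ProB, Smarca4 was higher by 1.56 in WT engrafted cells (adjusted p = 0.000992).

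The genes whose signals ran most like those of the members over the 14 arrays were listed among 7646 genes that span at least 2 log2 units. For Rag1 these were Fryl (Pearson's r 0.905), Gtf2a1 (0.903), Ankrd50 (0.898), Tm2d1 (0.890) and Lin9 (0.885). For Rag2 they were Zbed4 (0.879), Senp1 (0.877), Kti12 (0.863), Ciao1 (0.856) and Mis12 (0.847), none of which is on the Rag1 list. For Dntt they were Coro2a, Frmd6 and Mvb12b (0.971 each), Dipk1b (0.950) and Tmem176b (0.950). The arrays share groups and preparation, so these values describe the table and carry no test.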

How the data were processed

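RNA of 14 samples in 6 groups, as the sample labels give them, was hybridised to Affymetrix 3′ arrays. The authors deposited 1 table of log2 signals for 45101 probe sets. The submitters' processing notes name GCRMA, RMA and limma, and which of them made the table and with which versions is not given in the sources used here. Values run from 2.32 to 16.1, and no further scaling was applied. The array medians of 2.41 to 2.52 lie near the floor, so they do not show whether the arrays share a scale. The upper quartiles of the arrays ran from 5.39 to 5.98, and calls with equal upper quartiles are given below. No detection call was used, and the number of arrays limits the precision.

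Probe sets were named from the platform annotation: 34945 carried a single symbol, 932 carried more than 1, 64 were controls and 9160 are unnamed here. Names were updated through RefSeq GRCm38.p6, in which 34741 were matched. The probe set with the highest mean stood for each of 18193 genes. One linear model over all 14 arrays, without a replicate term, was fitted with limma 3.58.1 in R 4.3.3 (eBayes; 8 residual degrees of freedom), tested first on simulated data, with Benjamini-Hochberg adjustment across the whole gene table. The groups compared were Pax5KO and WT engrafted cells, each of these and ProB, and the successive steps from Ly6D- CLP to PreB. P-values measure the spread between these arrays, which may be partly technical where animals were shared.

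The members and lists were chosen with earlier results of these data known. Named were all members with every probe set; from each list of the pathway, of factors acting on it and of proliferation (cell type markers apart) those called between the engrafted groups, or the one with the largest difference; at the other steps the called gene of each list with the largest difference; and the 5 genes most correlated with Rag1, Rag2 and Dntt. In the account of factors acting on the Rag locus, Foxo1, Satb1, Foxp1 and Myb were named after their values were seen. Some listed genes are not reported here; counts are over the measured ones. Same-numbered engrafted arrays deviated together from their group means (r of 0.159, 0.335 and 0.571, against -0.512 to 0.416 for differently numbered arrays). Since each exceeded 0.1, the numbers were treated as possible pairs in the replicate block, which is not part of the main fit. Pax5KO array 1 went more with WT array 2 (0.416) than with WT array 1 (0.159), so whether the numbers mark pairs is not settled. Alternatives covered filters, probe set choice, scaling, weights, variance model, replicate block, samples in the fit, an Xist term and each array left out. In a group of 2 arrays, leaving out 1 keeps a single array, so such a fit holds no spread of that group.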

Additional observations from a re-analysis of the deposited data

How the results depend on the processing

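No difference of a member or of a named gene turned its sign while called under any alternative run. Of 554 member differences under alternatives other than leaving out 1 array, 478 kept direction and side of the threshold, 27 lost the call, 32 gained one and 17 changed sign while not called; with 1 array left out the numbers were 166, 30, 7 and 21 of 224. Between Pax5KO and WT engrafted cells, where 1 member and 1080 genes were called, the replicate block left the member count at 1, and it changed no member's call there. The members called were 2 without dim genes, 4 with array weights and 0 when the fit held just the 6 engrafted arrays, where 697 genes were called; array weights called 3065 genes. From Ly6D- to Ly6D+ CLP (1 member and 264 genes), fitting probe sets singly called 0 members and 414 probe sets, array weights 0 members and 102 genes, and a fit of these groups alone 0 members and 1 gene. From Ly6D+ CLP to ProB (3 members and 1327 genes), array weights called 0 members and 368 genes, a fit of these groups alone 0 members and 3 genes, and equal upper quartiles 7239 genes. From ProB to PreB (3 members and 2100 genes), the members called were 5 without dim genes and 0 with array weights, and a fit of these groups alone called 0 members and 487 genes. For Pax5KO engrafted cells against ProB (2 members and 953 genes), averaged probe sets called 1 member, single probe sets 1, quantile normalization 0 and a fit of these groups alone 0 with 191 genes; equal upper quartiles called 8601 genes. For WT engrafted cells against ProB (0 members and 897 genes), the members called were 3 without dim genes, 3 without genes at the floor, 1 with averaged probe sets, 3 with equal upper quartiles, 1 with quantile normalization, and 2 with the replicate block by either numbering. These 2 were Rag1 (3.08, adjusted p = 0.000800, by description; 2.91, 0.0206, by title) and Xrcc6 (1.46, 0.00739; 1.42, 0.0114). For Pax5KO engrafted cells against ProB the block gave Rag1 a call (3.41, 0.000513; 3.24, 0.0132) and, by description numbers, ended that of Prkdc (0.0625), as it did from Ly6D+ CLP to ProB (0.0613). For WT engrafted cells against ProB, 2 members were called without both engrafted arrays numbered 3, an alternative chosen after seeing the data. In that same comparison equal upper quartiles called 8142 genes and a fit of the compared groups alone 100.

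Leaving out 1 array at a time gave 676 to 1034 genes and 1 member between the engrafted groups, 694 to 1144 genes and 0 to 1 members between the CLP groups, 1060 to 2129 genes and 0 to 3 members from Ly6D+ CLP to ProB, and 1491 to 2695 genes and 0 to 1 members from ProB to PreB. It gave 565 to 1883 genes and 0 to 2 members for Pax5KO engrafted cells against ProB, and 489 to 1825 genes and 0 to 2 members for WT engrafted cells against ProB. Equal upper quartiles shifted the median of all genes by 0.35 from Ly6D+ CLP to ProB, -0.20 from ProB to PreB, -0.43 for Pax5KO engrafted cells against ProB and -0.36 for WT engrafted cells against ProB, and by construction moved values at the floor apart. The share of calls that were higher went from 26.5% to 84.0%, from 55.0% to 43.8%, from 80.6% to 11.1% and from 73.7% to 11.4% in the same order; with quantile normalization it was 39.6%, 47.1%, 63.2% and 50.6%. The replicate block with the description numbers ended the Gfi1b call between the engrafted groups (adjusted p = 0.0792), and the block with the title numbers ended that of Ccna2 (0.050007). In the comparisons with 2 arrays a group the replicate numbers gave no sign of pairing.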
